A study of Mus musculus with 24 samples.

Results

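The genes described here encode the cytosolic thioredoxin and peroxiredoxin system and 2 enzymes that work beside it. They are the 10 genes listed under the symbols Txn1, Txnrd1, Txnip, Srxn1, Prdx1, Prdx2, Prdx5, Prdx6, Sod2 and Cat, out of 35770 gene names listed and 13661 tested, and all 10 passed the filter on low values. The RNA came from bone marrow-derived macrophages (BMDMs) of C57BL/6 mice, grown with M-CSF and then exposed for 24 h to control media or to 75% conditioned media (CM) of LL2 cells, together with vehicle or 100 nM CDDO-Me. LL2 is a cell line from a Lewis lung carcinoma of the mouse, and media had stood for 48 h on its WT, KEAP1 KO or NRF2 KO cells, or on a plate without cells for the control. Both treatments were given in all 4 media (control, WT CM, KEAP1 KO CM, NRF2 KO CM), which makes 8 groups of 3 libraries. Both knockouts were made by CRISPR in the LL2 cells, not in the macrophages. The library names carry 1 code for each knockout line, and how many animals gave the marrow is not given in the sources used here, so that p-values measure the spread between these libraries only.

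Peroxiredoxins reduce hydrogen peroxide with a cysteine that is oxidised in the reaction. Thioredoxin gives electrons back to most peroxiredoxins and is itself reduced by thioredoxin reductase at the cost of NADPH, while sulfiredoxin repairs peroxiredoxins whose cysteine has been oxidised too far. Macrophages produce superoxide and peroxide as part of their defence, and CDDO-Me, a synthetic oleanane triterpenoid also named bardoxolone methyl, is known to bind KEAP1 and release the transcription factor NRF2, which drives many genes of this system.

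Values are TPM, the abundance of a transcript scaled to a fixed total per library and corrected for its length, so that levels of different genes can be compared. The paper gives an average sequencing depth, but the number of reads in each library is unknown. For tests, TPM were scaled between libraries, log2 values with a pseudocount of 1 were fitted with limma over all 24 libraries, and Benjamini-Hochberg adjustment ran over the 13661 genes, with 0.05 as threshold. Log2 fold changes are on that scale and are given with their standard error (SE). The replicate 3 libraries of NRF2 KO CM/vehicle and NRF2 KO CM/CDDO-Me stood apart, with 15702 and 16299 genes above 0 against 17817 to 18993 in the other 22 libraries. All 6 macrophage markers were present, with a summed level of 2606 to 4390 TPM. The 9 fibroblast markers, all of which were also tested, summed to 171 to 2147 TPM and were lowest in replicate 3 of every group. Erythroid, mast cell, and T and B cell markers summed to at most 1.42 TPM, with 2 erythroid and 1 mast cell marker at 0 in every library, the 4 epithelial markers, which could show carried-over LL2 cells, to at most 4.72 TPM, and the 5 neutrophil markers, of which 2 were tested, to 9.79 to 31.8 TPM with vehicle and 29.1 to 71.0 TPM with CDDO-Me. Since the libraries are bulk RNA, fewer cells of a type and less RNA per cell cannot be told apart.

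The 10 genes together made up a small share of all transcripts with vehicle and a several-fold larger one with CDDO-Me. Their summed share was 0.325% to 0.491% of all TPM in the 12 vehicle libraries and 1.56% to 1.91% in the 12 CDDO-Me libraries. Prdx1, a major cytosolic peroxiredoxin, supplied 41.8% to 58.6% of the sum with vehicle and 68.0% to 75.2% with CDDO-Me. With vehicle, Prdx1 stood at 1459 to 2876 TPM, and the next gene in most vehicle libraries, Txnip, at 289 to 670.3 TPM. Sod2, Srxn1 and Prdx6 had the lowest vehicle means, with 46.7 to 115 TPM for Srxn1.

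**Figure D1:**
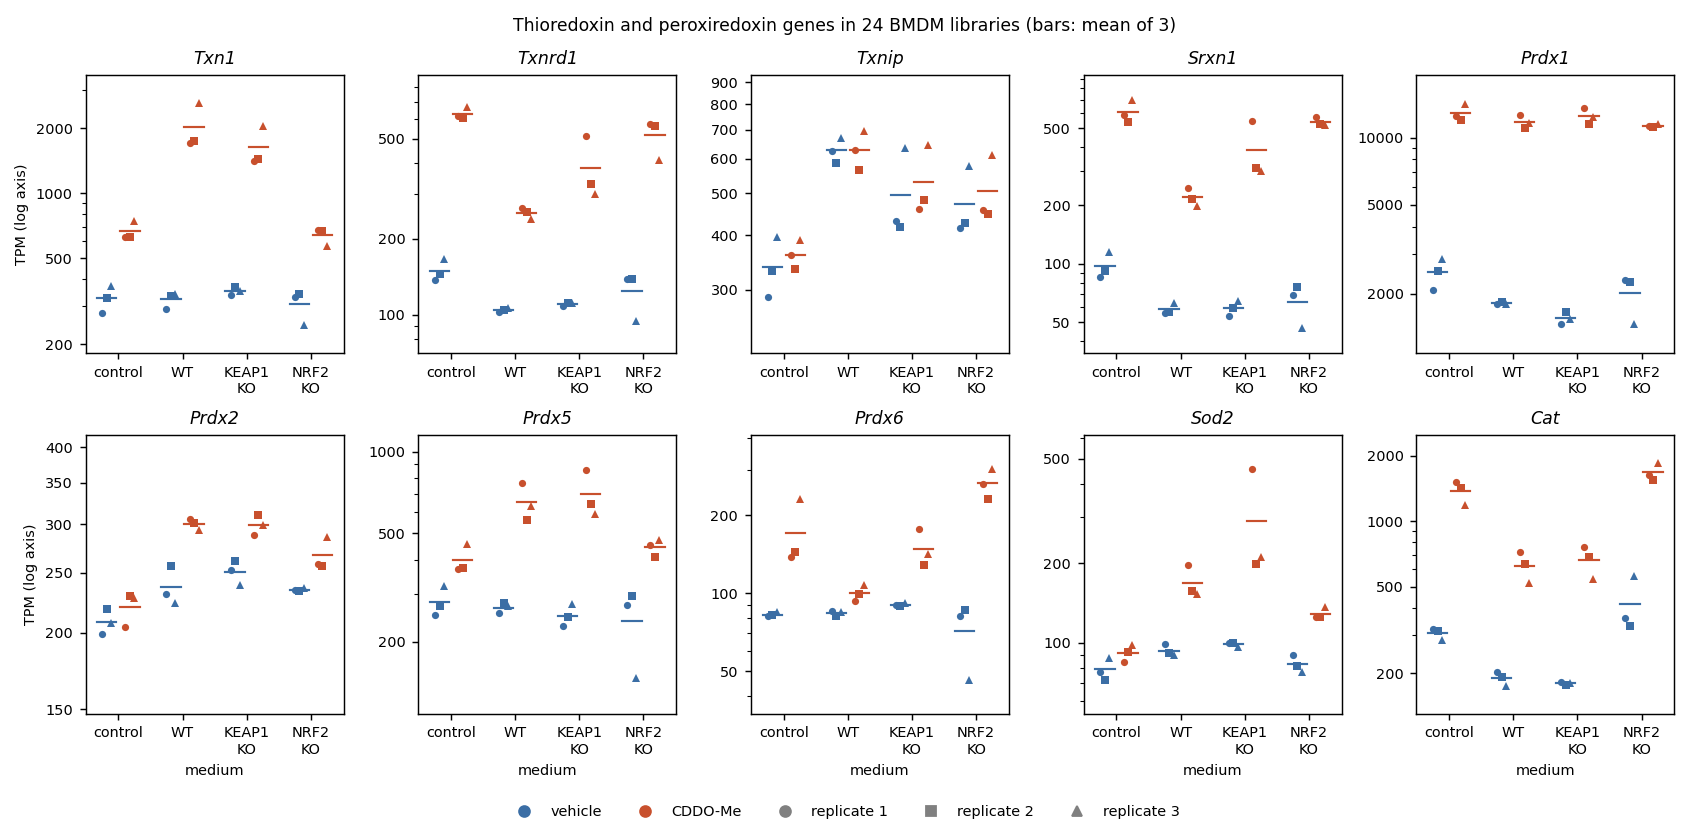
Level of each of the 10 genes (TPM, log axis) in the 24 libraries by medium, with vehicle in blue and CDDO-Me in orange; the marker shape gives the replicate number and the bar the mean of 3 libraries. Txnrd1, Srxn1, Prdx1 and Cat were higher with CDDO-Me in every medium with no overlap, Txn1 rose most in WT CM and KEAP1 KO CM, and the vehicle and CDDO-Me values of Txnip overlapped in all 4 media.

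All 10 genes had a higher mean with CDDO-Me in each of the 4 media, and 6 to 9 of them passed the test. In control media 6 of the 10 rose (Txn1, Txnrd1, Srxn1, Prdx1, Prdx6 and Cat), where 6.02% of all genes tested were called and 3.22% were called higher. In WT CM 8 rose, where 27.9% of genes were called and 14.4% were called higher, and in KEAP1 KO CM 9 rose, against 28.8% called and again 14.4% called higher. In NRF2 KO CM 7 rose, where 9.61% of genes were called and 4.87% were called higher. None fell in any medium, where 2.8%, 13.4%, 14.3% and 4.74% of genes were called lower in the same order. Their median log2 fold change was 1.03 in control media, 1.40 in WT CM, 1.77 in KEAP1 KO CM and 1.53 in NRF2 KO CM, while the median over all genes tested lay within 0.021 of 0 in each. CDDO-Me and vehicle values did not overlap for 7 genes in control media, where this held for 31.5% of genes tested, and for 9 genes in each CM, where it held for 17.6% of genes in NRF2 KO CM, 53.5% in WT CM and 54.1% in KEAP1 KO CM. The summed level of the 6 macrophage markers moved with these groups, at 2606 to 2804 TPM in WT CM/CDDO-Me against 3955 to 4390 TPM in WT CM/vehicle and 2668 to 3058 TPM against 3754 to 4246 TPM in KEAP1 KO CM, although by gene 2 of the 6 were called higher and 1 lower in each of these media. The neutrophil marker sum was higher with CDDO-Me in every library of each medium, from 14.6 to 22.8 TPM with vehicle to 63.6 to 71.0 TPM in KEAP1 KO CM, and 1 of the 2 tested was called higher in each CM and 0 in control media. The fibroblast marker sum was 213 to 601 TPM in WT CM/CDDO-Me against 559 to 1154 TPM in WT CM/vehicle, with 1 of the 9 called lower. In KEAP1 KO CM it was 171 to 803 TPM against 789 to 1503 TPM, with 2 called lower. Both pairs of ranges overlapped, and none of these markers was called in control media or NRF2 KO CM. The part of all these markers in the result was not tested.

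The genes lie on 8 different chromosomes of the GRCm39 mouse genome, with Txn1 at chr4:57934208-57956424, Txnrd1 at chr10:82669785-82733546, Txnip at chr3:96465267-96469201, Srxn1 at chr2:151947436-151957687, Prdx1 at chr4:116532123-116558398, Prdx2 at chr8:85693354-85702350, Prdx5 at chr19:6884065-6887792, Prdx6 at chr1:161051417-161079098, Sod2 at chr17:13224095-13259591 and Cat at chr2:103284194-103316185 in GENCODE vM39. Because members of the system rose together, the 1000 bases before each start site of the main transcript were searched for the 9-base core TGACNNNGC, the invariant letters of the antioxidant response element that NRF2 is known to bind, on both strands. It was present for 4 of the 10 genes (Txnrd1 at 2 places, Prdx1, Prdx6 and Sod2) and for 28.2% of 21751 protein-coding promoters. Within 250 bases of the start site it was present for 3 of the 10 (Txnrd1, Prdx1 and Prdx6) and for 9.68% of promoters. A match of letters is a description and not a binding site, and no match says only that these letters are not in this window. The matches near the start site are shown because they belong to 3 genes that rose with CDDO-Me in at least 3 media. They are written 5′ to 3′ on the strand of the gene, with the matching letters of either strand in capitals and 10 bases on each side.
Txnrd1, chr10:82694938-82694966, 65 bases before the start site: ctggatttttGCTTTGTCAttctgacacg
Prdx1, chr4:116542653-116542681, 78 bases before the start site: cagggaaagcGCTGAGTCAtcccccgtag
Prdx6, chr1:161079143-161079171, 63 bases before the start site: ccacttcctcTGACTTAGCccacgtcaca
The Txnrd1 and Prdx1 windows overlap exons annotated to Gm38560 and AV051173, while the Prdx6 window overlaps none. Srxn1, which had the largest or second largest rise in 3 of the 4 media, and Cat had no match in 1000 bases. Txn1, which was called higher in all 4 media, and Prdx5, called higher in 3, had none either, nor had Txnip and Prdx2.

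**Figure D2:**
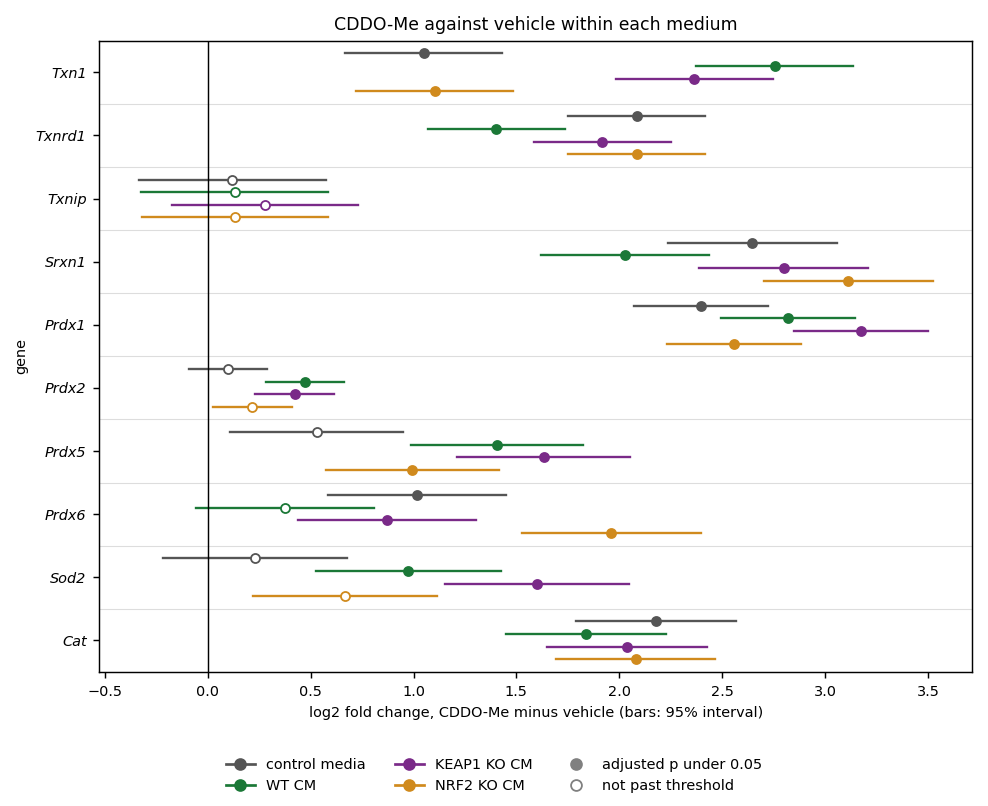
Log2 fold change of CDDO-Me over vehicle for the 10 genes in control media (grey), WT CM (green), KEAP1 KO CM (purple) and NRF2 KO CM (orange), with 95% intervals from limma; filled points passed an adjusted p of 0.05. Srxn1, Prdx1, Txnrd1 and Cat lay between 1.40 and 3.17 in all media, whereas Txn1 split into 1.05 and 1.10 against 2.36 and 2.75.

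Txn1, the cytosolic thioredoxin, had the largest difference in response between media among the 10 genes. With vehicle the libraries of all 4 media overlapped, at 279, 327 and 372 TPM in control media, 289.6, 335 and 342 TPM in WT CM, 337, 367 and 350.5 TPM in KEAP1 KO CM and 330.1, 341 and 244 TPM in NRF2 KO CM. With CDDO-Me it reached 624, 627 and 743 TPM in control media and 672, 670.1 and 569 TPM in NRF2 KO CM, but 1712, 1742 and 2626 TPM in WT CM and 1411, 1444 and 2051 TPM in KEAP1 KO CM. The vehicle and CDDO-Me ranges were apart in all 4 media, and every CDDO-Me library of WT CM and KEAP1 KO CM lay above every CDDO-Me library of control media and NRF2 KO CM. The log2 fold change was 1.05 (SE 0.18, adjusted p = 0.00093) in control media and 1.10 (SE 0.18, adjusted p = 0.00039) in NRF2 KO CM. It was 2.75 (SE 0.18, adjusted p = 4.1e-10) in WT CM, a ratio of mean TPM of 6.29, and 2.36 (SE 0.18, adjusted p = 4.2e-09) in KEAP1 KO CM, a ratio of 4.65. In both of these CM replicate 3 was the highest library.

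The dependence on the medium was tested as the difference of 2 CDDO-Me effects. For Txn1 the effect was larger than in control media by 1.71 (SE 0.26, adjusted p = 7.3e-05) in WT CM and by 1.32 (SE 0.26, adjusted p = 0.0011) in KEAP1 KO CM. Among all genes tested, 15.3% were called in the first of these comparisons and 14.8% in the second, which share the control media libraries. The difference between NRF2 KO CM and control media was 0.056 (SE 0.26), with a 95% interval -0.48 to 0.60, and that between KEAP1 KO CM and WT CM was -0.39 (SE 0.26), with a 95% interval -0.93 to 0.15. The fibroblast marker sum was 213 to 601 TPM in WT CM/CDDO-Me and 171 to 803 TPM in KEAP1 KO CM/CDDO-Me, overlapping 576 to 1711 TPM in media/CDDO-Me, and its part in the result was not tested.

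Txnrd1, the cytosolic thioredoxin reductase, rose in every medium but to different levels. Vehicle values were 138, 144 and 167 TPM in control media, 102, 104 and 106 TPM in WT CM, 108, 111 and 111 TPM in KEAP1 KO CM and 139, 139 and 94.5 TPM in NRF2 KO CM. With CDDO-Me the values were 613, 606 and 666 TPM, 265, 256 and 239 TPM, 514, 331 and 302 TPM and 572, 561 and 412 TPM in the same order. The vehicle and CDDO-Me ranges were apart in each medium, and with CDDO-Me the WT CM libraries were the lowest and the control media libraries the highest, with KEAP1 KO CM and NRF2 KO CM overlapping in between. On the log2 scale the change was 2.09 (SE 0.16, adjusted p = 6.3e-08) in control media, 1.40 (SE 0.16, adjusted p = 8.8e-07) in WT CM, 1.92 (SE 0.16, adjusted p = 1.3e-08) in KEAP1 KO CM and 2.08 (SE 0.16, adjusted p = 5.8e-08) in NRF2 KO CM. The effect in WT CM was smaller than in control media by 0.68 on the log2 scale (SE 0.22, adjusted p = 0.046), the opposite direction to Txn1. This call was close to the threshold and was lost on leaving out any of the 12 libraries of these 4 groups except replicate 3 of media/vehicle, with adjusted p up to 0.11. The call was also lost without any single KEAP1 KO CM/vehicle library and without replicate 2 of NRF2 KO CM/CDDO-Me. It was lost too without a filter on low values (adjusted p = 0.077) and without a trend (0.054). With CDDO-Me the mean level of Txn1 was highest in WT CM, the medium in which that of Txnrd1 was lowest.

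Srxn1, the sulfiredoxin that repairs overoxidised peroxiredoxins, followed Txnrd1. Its vehicle values were 86.2, 92.0 and 115 TPM in control media, 56.1, 56.9 and 62.7 TPM in WT CM, 53.7, 59.5 and 64.8 TPM in KEAP1 KO CM and 69.3, 75.9 and 46.7 TPM in NRF2 KO CM. With CDDO-Me they were 582, 541 and 699 TPM, 247, 217 and 199.9 TPM, 543, 313 and 301 TPM and 568, 527 and 519 TPM. No vehicle library overlapped a CDDO-Me library in any medium, and the CDDO-Me libraries of WT CM were again the lowest. In log2 units, CDDO-Me against vehicle was 2.65 (SE 0.20, adjusted p = 5e-08) in control media, 2.03 (SE 0.20, adjusted p = 1.1e-07) in WT CM, 2.80 (SE 0.20, adjusted p = 1e-09) in KEAP1 KO CM and 3.11 (SE 0.20, adjusted p = 4.2e-09) in NRF2 KO CM, where the ratio of mean TPM was 8.41. The effect differed by -0.62 (SE 0.28, adjusted p = 0.17) between WT CM and control media and by 0.77 (SE 0.28, adjusted p = 1) between KEAP1 KO CM and WT CM, neither of which passed. Over the 24 libraries the log2 values of Srxn1 and Txnrd1 had a Pearson r of 0.994, the highest of any pair among the 10 genes, which share libraries and the CDDO-Me contrast.

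In KEAP1 KO CM/CDDO-Me, replicate 1 was the highest library of its group for Txnrd1, Srxn1, Prdx1, Prdx5, Prdx6, Sod2 and Cat. Without it, the log2 fold change in KEAP1 KO CM was 1.68 (SE 0.13, adjusted p = 1.8e-08) for Txnrd1, 2.52 (SE 0.17, adjusted p = 2.1e-09) for Srxn1 and 1.21 (SE 0.14, adjusted p = 1.6e-06) for Sod2 by limma. In NRF2 KO CM/vehicle, replicate 3, with few genes detected, was the lowest of its group for Txn1, Txnrd1, Srxn1, Prdx1, Prdx5, Prdx6 and Sod2 and the highest for Txnip, Prdx2 and Cat. Leaving out both such NRF2 KO CM libraries kept 7 genes called with CDDO-Me in NRF2 KO CM, with log2 fold changes of 1.03 for Txn1, 2.05 for Txnrd1, 2.93 for Srxn1, 2.33 for Prdx1 and 2.24 for Cat.

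Txnip, which binds reduced thioredoxin and inhibits it, was higher in WT CM than in control media, and CDDO-Me did not change it past the threshold in any medium. Vehicle values were 289, 332 and 397 TPM in control media, 624, 588 and 670.3 TPM in WT CM, 431, 418 and 635 TPM in KEAP1 KO CM and 416, 427 and 577 TPM in NRF2 KO CM. With CDDO-Me they were 359.9, 334 and 389.9 TPM, 627, 564 and 694 TPM, 460.2, 483 and 644 TPM and 458, 447 and 613 TPM. In TPM all 18 libraries with CM lay above all 6 with control media, and within each medium the vehicle and CDDO-Me ranges overlapped. After scaling between libraries the CM and control media libraries overlapped, with 386 TPM in NRF2 KO CM/vehicle replicate 2 against 398 TPM in media/CDDO-Me replicate 3. CDDO-Me changed the log2 value by 0.12 (SE 0.22) in control media (95% interval -0.33 to 0.57), by 0.13 (SE 0.22) in WT CM, by 0.28 (SE 0.22) in KEAP1 KO CM (95% interval -0.18 to 0.73) and by 0.13 (SE 0.22) in NRF2 KO CM, with adjusted p from 0.4 to 0.95. In all 3 CM the replicate 3 library was the highest with either treatment.

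With vehicle, Txnip was higher in WT CM than in control media by 0.97 (SE 0.22, adjusted p = 0.0075), a ratio of mean TPM of 1.85, and it was the only one of the 10 genes called higher there, where 7.23% of genes tested were called and 4.38% were called higher. Without replicate 1 of media/vehicle the difference was 0.86 with an adjusted p of 0.051. The differences were 0.53 (SE 0.22, adjusted p = 0.17) for KEAP1 KO CM and 0.48 (SE 0.22, adjusted p = 0.41) for NRF2 KO CM, in both of which the ranges did not overlap control media but the test was not passed. Without the 2 NRF2 KO CM libraries with few genes, the difference was 0.28 (adjusted p = 0.94) for NRF2 KO CM and passed for KEAP1 KO CM (adjusted p = 0.041), and with the replicate number as a block it passed for KEAP1 KO CM (adjusted p = 0.0016). Of 6 genes tested from a list of the glucose-sensing MondoA and ChREBP factors and the arrestin-domain relatives of Txnip, Arrdc4 was higher in WT CM by 1.14 (SE 0.18, adjusted p = 0.00034) and in KEAP1 KO CM by 1.13 (SE 0.18, adjusted p = 0.00031). Arrdc3 was lower in the same comparisons, by 0.86 (SE 0.17, adjusted p = 0.0028) and 1.15 (SE 0.17, adjusted p = 0.00016). Mlxip, which encodes MondoA, differed by 0.16 (SE 0.21, adjusted p = 0.83) and -0.10 (SE 0.21, adjusted p = 0.92), and Arrdc1 by -0.24 (SE 0.26, adjusted p = 0.75) and -0.38 (SE 0.26, adjusted p = 0.5).

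Prdx1 was the most abundant member in every library and rose in all 4 media. Vehicle values were 2077, 2534 and 2876 TPM in control media, 1803, 1841 and 1804 TPM in WT CM, 1469, 1655 and 1541 TPM in KEAP1 KO CM and 2310.4, 2249 and 1459 TPM in NRF2 KO CM. With CDDO-Me they were 12449, 12015 and 14206 TPM, 12608, 11029 and 11602 TPM, 13621, 11466 and 12378 TPM and 11243, 11155 and 11517 TPM. The vehicle and CDDO-Me ranges were far apart in each medium, while among the CDDO-Me groups each range overlapped the next in the order of means. The fitted log2 change was 2.40 (SE 0.16, adjusted p = 1.6e-08) in control media, 2.82 (SE 0.16, adjusted p = 3.1e-11) in WT CM, 3.17 (SE 0.16, adjusted p = 4.9e-12) in KEAP1 KO CM and 2.56 (SE 0.16, adjusted p = 4e-09) in NRF2 KO CM, which is a ratio of mean TPM of 5.17 in control media and 8.03 in KEAP1 KO CM. The larger effect in KEAP1 KO CM than in control media, by 0.78 (SE 0.22, adjusted p = 0.019), went with a lower vehicle level in KEAP1 KO CM. That call was lost without a filter on low values (adjusted p = 0.14) and, with adjusted p from 0.051 to 0.065, without scaling or without any of 4 single libraries (media/vehicle replicate 3, KEAP1 KO CM/vehicle replicate 1, media/CDDO-Me replicate 2 and KEAP1 KO CM/CDDO-Me replicate 1). Prdx1-ps, a pseudogene of Prdx1, was listed at no more than 0.0837 TPM in any library.

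Prdx2, a cytosolic peroxiredoxin of the same type, moved far less. Its vehicle values were 199, 219 and 207 TPM in control media, 231, 256 and 224 TPM in WT CM, 253, 261 and 239 TPM in KEAP1 KO CM and 234, 234 and 237 TPM in NRF2 KO CM, against 204, 229.7 and 227 TPM, 306, 301 and 293 TPM, 288, 310.3 and 299 TPM and 259, 257 and 286 TPM with CDDO-Me. The ranges overlapped in control media and were apart in the 3 CM. After scaling between libraries they overlapped in NRF2 KO CM too, with 242 TPM in vehicle replicate 3 against 238 TPM in CDDO-Me replicate 2. The log2 fold change was 0.47 (SE 0.09, adjusted p = 0.00045) in WT CM and 0.42 (SE 0.09, adjusted p = 0.0012) in KEAP1 KO CM, both past the threshold, and 0.10 (SE 0.09, adjusted p = 0.77) in control media and 0.22 (SE 0.09, adjusted p = 0.17) in NRF2 KO CM, which were not. Exons of Prdx2 overlap those of Junb and Rnaseh2a on the opposite strand, listed at medians of 101.1 and 45.1 TPM, and whether the counting used strand is not given in the sources used here.

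Prdx5, a peroxiredoxin found in mitochondria, peroxisomes and cytosol, resembled Txn1. With vehicle it stood at 250.1, 271 and 320.3 TPM in control media, 255, 277 and 270.1 TPM in WT CM, 228, 246 and 274 TPM in KEAP1 KO CM and 274, 294 and 147 TPM in NRF2 KO CM. With CDDO-Me it stood at 370.5, 374 and 456 TPM, 769, 562 and 628 TPM, 852, 644 and 591 TPM and 452, 409.9 and 473 TPM. Every CDDO-Me library was above every vehicle library of its medium, and those of WT CM and KEAP1 KO CM were the highest of all. On the log2 scale the change was 1.41 (SE 0.20, adjusted p = 1.6e-05) in WT CM, 1.63 (SE 0.20, adjusted p = 2.5e-06) in KEAP1 KO CM and 0.99 (SE 0.20, adjusted p = 0.0025) in NRF2 KO CM, and 0.53 (SE 0.20, adjusted p = 0.15) in control media, which did not pass. The value in control media passed without NRF2 KO CM/vehicle replicate 3 (adjusted p = 0.04). In NRF2 KO CM the value was 0.63 (adjusted p = 0.039) without the 2 libraries with few genes, and the adjusted p was 0.2 when only the 6 libraries of that medium were fitted. The effect was larger than in control media by 0.88 (SE 0.28, adjusted p = 0.042) in WT CM and by 1.10 (SE 0.28, adjusted p = 0.01) in KEAP1 KO CM. The call for WT CM was lost in 12 of 24 fits that left out 1 library, with adjusted p up to 0.12 without WT CM/CDDO-Me replicate 1, and also without scaling (adjusted p = 0.079) and without a filter (0.077). Exons of Prdx5 and Trmt112, listed at a median of 64.6 TPM, overlap on opposite strands.

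Prdx6, a peroxiredoxin that uses glutathione in place of thioredoxin, showed another order. Vehicle values were 81.8, 82.3 and 84.5 TPM in control media, 85.4, 81.9 and 84.9 TPM in WT CM, 90.1, 89.1 and 92.2 TPM in KEAP1 KO CM and 81.7, 86.4 and 46.2 TPM in NRF2 KO CM. With CDDO-Me they were 139, 144 and 231 TPM, 93.5, 99.2 and 107 TPM, 177, 128 and 142 TPM and 264, 232 and 303 TPM. In TPM the NRF2 KO CM libraries were the highest with CDDO-Me, with none below the highest library of control media, and the WT CM libraries were the lowest. After scaling between libraries, NRF2 KO CM replicate 2 (215 TPM) lay below control media replicate 3 (236 TPM), so that these 2 ranges overlapped. In log2 units, CDDO-Me against vehicle was 1.96 (SE 0.21, adjusted p = 2.4e-06) in NRF2 KO CM, 1.02 (SE 0.21, adjusted p = 0.004) in control media and 0.87 (SE 0.21, adjusted p = 0.0029) in KEAP1 KO CM, while 0.38 (SE 0.21, adjusted p = 0.21) in WT CM did not pass. In WT CM the vehicle and CDDO-Me ranges were apart. The value there passed with the compared groups alone (0.36, adjusted p = 0.0093) and with array weights (0.33, adjusted p = 0.024). Without the 2 NRF2 KO CM libraries with few genes, the value in NRF2 KO CM was 1.58 (adjusted p = 4.9e-05). The difference of the effects between NRF2 KO CM and control media was 0.94 with an unadjusted p of 0.0045 and an adjusted p of 1, and it was 0.56 without the same 2 libraries. No gene was called in that comparison (0% of genes tested), and of the 10 genes Prdx6 alone had an unadjusted p under 0.05.

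Sod2, the mitochondrial superoxide dismutase that makes hydrogen peroxide from superoxide, rose with CDDO-Me in WT CM and KEAP1 KO CM. It was listed at 77.4, 72.3 and 87.2 TPM with vehicle and 84.1, 92.4 and 98.3 TPM with CDDO-Me in control media, which overlapped. The values were 98.6, 90.9 and 89.6 TPM against 196, 157 and 153 TPM in WT CM, 99.7, 99.6 and 96.5 TPM against 456, 198 and 211 TPM in KEAP1 KO CM and 89.7, 81.5 and 77.2 TPM against 125, 125 and 136 TPM in NRF2 KO CM. In each CM the CDDO-Me values were all the higher ones, and replicate 1 of KEAP1 KO CM/CDDO-Me was far above the other two. The fitted log2 change was 0.98 (SE 0.21, adjusted p = 0.0014) in WT CM and 1.60 (SE 0.21, adjusted p = 7e-06) in KEAP1 KO CM, and 0.23 (SE 0.21, adjusted p = 0.77) in control media and 0.67 (SE 0.21, adjusted p = 0.057) in NRF2 KO CM, neither of which passed. Without replicate 1 of KEAP1 KO CM/CDDO-Me, the value in NRF2 KO CM passed with an unchanged fold change (adjusted p = 0.0012), as it did without replicate 2 of that group (0.028) and with the replicate number as a block (0.029). Without the 2 NRF2 KO CM libraries with few genes it was 0.57 (adjusted p = 0.23). The effect in KEAP1 KO CM was larger than in control media by 1.37 (SE 0.30, adjusted p = 0.0032), and by 0.98 (adjusted p = 0.00093) without replicate 1 of KEAP1 KO CM/CDDO-Me. For WT CM the difference from control media was 0.74 (SE 0.30, adjusted p = 0.12), which did not pass. It passed without that same library (adjusted p = 0.0052), with the compared groups alone (0.0063) and with array weights (0.0078).

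Cat, the peroxisomal catalase that breaks down hydrogen peroxide without thioredoxin, rose by a similar factor in every medium from levels that differed between media. Vehicle values were 318, 313 and 285 TPM in control media, 202, 191 and 175 TPM in WT CM, 181, 177 and 179 TPM in KEAP1 KO CM and 357, 328 and 562 TPM in NRF2 KO CM. With CDDO-Me they were 1512, 1424 and 1183 TPM, 719, 637 and 517 TPM, 762, 685 and 539.8 TPM and 1633, 1545 and 1847 TPM. With either treatment the WT CM and KEAP1 KO CM libraries were all below those of control media. Those of NRF2 KO CM were above control media in TPM, but the ranges overlapped after scaling between libraries. There, NRF2 KO CM replicate 2 lay below control media replicate 1 with vehicle (296.7 against 305.9 TPM) and with CDDO-Me (1431 against 1446 TPM). The log2 fold change with CDDO-Me was 2.18 (SE 0.19, adjusted p = 2.7e-07) in control media, 1.84 (SE 0.19, adjusted p = 1.9e-07) in WT CM, 2.04 (SE 0.19, adjusted p = 4.8e-08) in KEAP1 KO CM and 2.08 (SE 0.19, adjusted p = 3.1e-07) in NRF2 KO CM. The differences of these effects from control media were -0.34 (SE 0.26) for WT CM, -0.14 (SE 0.26) for KEAP1 KO CM and -0.10 (SE 0.26) for NRF2 KO CM (0.064 without the 2 libraries with few genes), and none passed.

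**Figure D3:**
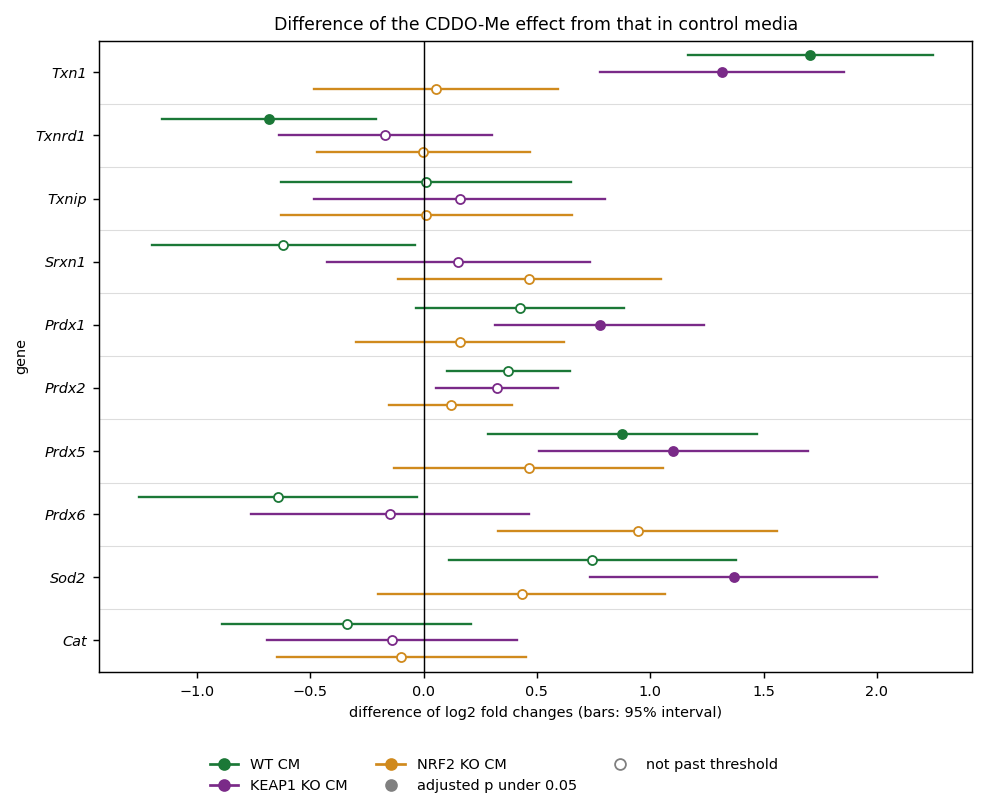
Difference of the CDDO-Me effect in each CM from that in control media, in log2 units with 95% intervals from limma, for WT CM (green), KEAP1 KO CM (purple) and NRF2 KO CM (orange); filled points passed an adjusted p of 0.05. Txn1 (1.71 and 1.32) and Prdx5 (0.88 and 1.10) were above 0 in WT CM and KEAP1 KO CM, Prdx1 and Sod2 passed in KEAP1 KO CM, Txnrd1 was below 0 in WT CM, and no gene passed for NRF2 KO CM.

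Of the 10 genes, 3 differed in their CDDO-Me effect between WT CM and control media, Txn1 and Prdx5 with a larger effect (8.59% of all genes) and Txnrd1 with a smaller one (6.73%). Between KEAP1 KO CM and control media 4 differed, each with a larger effect (Txn1, Prdx1, Prdx5 and Sod2), where 8.19% of all genes had a larger and 6.65% a smaller effect. Between KEAP1 KO CM and WT CM none of the 10 was called, nor any of the 13661 genes (0%), and 2 of the 10 had an unadjusted p under 0.05, Srxn1 at 0.77 and Txnrd1 at 0.51.

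Without CDDO-Me, few of the 10 genes passed between media. In WT CM Txnip was higher and Cat lower than in control media, Cat by 0.62 (SE 0.19, adjusted p = 0.049), with no overlap of the libraries and 2.85% of genes called lower. The Cat call was at the threshold and was lost in 16 of 24 fits that left out 1 library and in 3 others (RLE scaling, no filter, no trend), with adjusted p up to 0.16. In KEAP1 KO CM 3 genes were lower than in control media, where 8.06% of genes tested were called and 3.19% were called lower. These were Srxn1, by 0.70 (SE 0.20, adjusted p = 0.031), Prdx1, by 0.67 (SE 0.16, adjusted p = 0.0089), and Cat, by 0.77 (SE 0.19, adjusted p = 0.012). Leaving out replicate 3 of media/vehicle ended the calls of Srxn1 (adjusted p = 0.15) and Prdx1 (0.063), and leaving out replicate 1 ended that of Cat (0.055). The Srxn1 call was also lost without media/vehicle replicate 2 (adjusted p = 0.062), KEAP1 KO CM/vehicle replicate 1 (0.13) or replicate 2 (0.099), and the Cat call without KEAP1 KO CM/vehicle replicate 2 (0.052). Without a filter on low values Srxn1 had an adjusted p of 0.054 and Prdx1 of 0.084. Srxn1 differed by -0.65 (SE 0.20, adjusted p = 0.051) in WT CM, just short of passing. It passed with the replicate number as a block (adjusted p = 0.035), RLE scaling (0.045), no scaling (0.027) and a mean of at least 5 TPM (0.046). It also passed with array weights (0.0017), the compared groups alone (0.014) and without the NRF2 KO CM libraries with few genes (0.02). Some fits that left out 1 library passed as well. Txnrd1 differed by -0.44 (SE 0.16, adjusted p = 0.11) in WT CM and -0.43 (SE 0.16, adjusted p = 0.11) in KEAP1 KO CM, also with no overlap and without passing. Both passed with array weights (adjusted p = 0.0042 and 0.0028) and with the compared groups alone (0.016 in each). They also passed without the NRF2 KO CM libraries with few genes (0.032 in each) and without KEAP1 KO CM/CDDO-Me replicate 1 (0.029 and 0.031). Prdx2 differed by 0.25 (SE 0.09, adjusted p = 0.11) in WT CM and 0.27 (SE 0.09, adjusted p = 0.08) in KEAP1 KO CM, with no overlap. Both Prdx2 values passed with array weights (adjusted p = 0.0022 and 0.00018) and with the compared groups alone (0.034 and 0.018). Leaving out the NRF2 KO CM libraries with few genes gave 0.0067 and 0.0041.

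**Figure D4:**
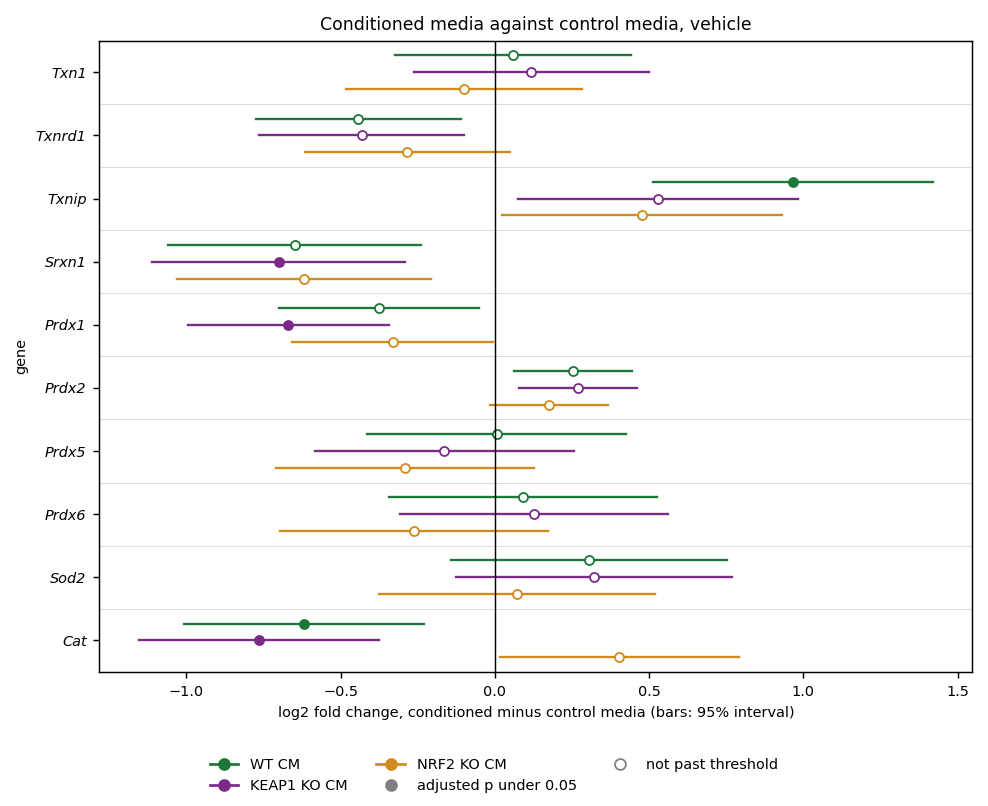
Log2 fold change of each CM over control media in vehicle-treated BMDMs for the 10 genes, for WT CM (green), KEAP1 KO CM (purple) and NRF2 KO CM (orange), with 95% intervals from limma; filled points passed an adjusted p of 0.05. The called values were Txnip (0.97) and Cat in WT CM and Srxn1, Prdx1 and Cat in KEAP1 KO CM, and Cat in NRF2 KO CM lay on the other side of 0.

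None of the 10 genes passed between NRF2 KO CM and control media by limma, where 0.00732% of genes tested were called, and 4 of the 10 had an unadjusted p under 0.05 (Txnip, Srxn1, Prdx1 and Cat). Cat was at 0.40 (SE 0.19) in that comparison, and at 0.12 without the 2 libraries with few genes. Set directly against WT CM with vehicle, where 10.6% of genes were called, 6.84% higher and 3.76% lower in WT CM, 1 of the 10 differed. Cat was lower in WT CM than in NRF2 KO CM by 1.02 (SE 0.19, adjusted p = 0.0012), and by 0.74 (adjusted p = 0.00072) without the NRF2 KO CM libraries with few genes. Fitted on these 6 libraries alone, the difference in Cat had an adjusted p of 0.16. Txnip differed by 0.49 (SE 0.22, adjusted p = 0.15) between WT CM and NRF2 KO CM, and by 0.69 (adjusted p = 0.025) without the libraries with few genes. Between KEAP1 KO CM and WT CM with vehicle none of the 10 genes passed, nor any gene tested (0%), and none of the 10 had an unadjusted p under 0.05. The widest of these differences was that of Txnip, at -0.44 (SE 0.22) with a 95% interval -0.89 to 0.017. With vehicle, the libraries did not overlap for 7 of the 10 genes between WT CM and control media (35% of all genes), 8 for KEAP1 KO CM (35.8%), 4 for NRF2 KO CM (12.6%), 2 between WT CM and NRF2 KO CM (26.4%) and 3 between KEAP1 KO CM and WT CM (13.6%). The comparisons of the 3 CM with control media share the same media/vehicle libraries.

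Of 31 further genes of the thioredoxin, peroxiredoxin, glutaredoxin, glutathione peroxidase, superoxide dismutase, sestrin and thiol repair systems, 30 were tested. With CDDO-Me, 2 rose and 2 fell in control media, 4 rose and 5 fell in WT CM, 3 rose and 5 fell in KEAP1 KO CM, and 4 rose and 3 fell in NRF2 KO CM, with medians of 0.13, -0.031, -0.14 and 0.16 beside medians over all genes within 0.021 of 0. Over all genes tested, 6.02%, 27.9%, 28.8% and 9.61% were called in the same order, and the shares of the list in WT CM and KEAP1 KO CM were near these. Sod1, the cytosolic superoxide dismutase, and Msrb1, a methionine sulfoxide reductase, rose in all 4 media. Sod1 rose by 0.72 (SE 0.15) in control media, 1.00 (SE 0.15) in WT CM, 0.99 (SE 0.15) in KEAP1 KO CM and 0.68 (SE 0.15) in NRF2 KO CM, and Msrb1 by 0.83, 1.34, 1.33 and 1.19. Sesn1, a sestrin induced by p53, fell in all 4, at -0.46, -1.06, -1.09 and -0.56. Msrb2, the mitochondrial methionine sulfoxide reductase, fell in WT CM (-0.997) and KEAP1 KO CM (-1.46).

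The remaining called genes of that list were Msra, lower in control media and NRF2 KO CM, Glrx, higher in WT CM and KEAP1 KO CM, Gpx3, lower in each CM, Txnrd3, lower in WT CM and KEAP1 KO CM, Sesn3, higher in WT CM and NRF2 KO CM, and Glrx3, lower in WT CM and KEAP1 KO CM and higher in NRF2 KO CM. The mitochondrial counterparts of the members were not called with CDDO-Me in any medium. Txn2, the mitochondrial thioredoxin, differed by 0.065 (SE 0.08) in WT CM, Txnrd2, its reductase, by -0.56 (SE 0.32), and Prdx3, the mitochondrial peroxiredoxin, by -0.10 (SE 0.18). Prdx4, the peroxiredoxin of the endoplasmic reticulum, differed by 0.035 (SE 0.22). These genes were chosen for their roles after their values were seen.

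Known NRF2 targets outside the family gave a scale for the members. Of 14 such genes tested, 11 rose with CDDO-Me in control media, 8 in WT CM, 10 in KEAP1 KO CM and 12 in NRF2 KO CM, with medians of 1.66, 1.01, 1.36 and 1.88, and none fell. Over all genes tested, 3.22%, 14.4%, 14.4% and 4.87% were called higher in the same comparisons. Nqo1, the quinone reductase often used to report NRF2 activity, rose by 4.86 (SE 0.33), 3.69 (SE 0.33), 4.44 (SE 0.33) and 5.37 (SE 0.33) in the same order. It rose least in WT CM and most in NRF2 KO CM, as did Srxn1, whereas Txn1 rose most in WT CM and Prdx5 in KEAP1 KO CM. Gclm, a subunit of the glutathione synthesis enzyme, rose by 3.83, 4.08, 4.13 and 4.12, more than any of the 10 genes. Pgd and G6pdx, both enzymes of the pentose phosphate pathway that supplies NADPH, rose by 1.54 to 2.10 and by 1.08 to 1.42.

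The genes with the most similar pattern were found by Pearson's r of log2 values over the 24 libraries among genes with a mean of at least 10 TPM, as a description, since libraries that share a treatment are not independent points. Txnrd1 and Srxn1 were each closest to Pgd, with r of 0.979 and 0.986, and both had Procr among the nearest 3. Prdx1 was closest to Blvrb, the biliverdin reductase B (0.994), followed by G6pdx. Cat was closest to Zscan29 (0.988), then Gbe1 and Prkar2b, and Sod2 to Acod1, which makes itaconate (0.959), then Gpd2 and Gpr132. Txn1 was closest to Nt5c (0.981), H13 and Slc25a12, and Prdx5 to Ubb (0.967), Acvrl1 and Slc3a2. Prdx6 was closest to Cep20 (0.936), Gss and Sqor, Prdx2 to Gm49342 (0.945), Ly6e and Dipk1a, and Txnip to Fcgr3 (0.913), Rpl24 and Atp5f1c. Among the 10 genes themselves, Txn1 and Prdx5 had r of 0.936, and Txnip with Txnrd1, Srxn1 and Cat had the lowest values, from -0.073 to -0.013.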

How the data were processed

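Poly-A RNA was measured in 24 BMDM libraries, grouped by the sample labels into 8 groups of 3. The authors had it sequenced and quantified with Kallisto against GRCm39, and deposited TPM per gene name. The 10 genes and all lists were chosen with earlier results of these data known, so that no list is independent evidence. A single line without a gene name was left out (199 to 635 TPM per library). Libraries were scaled by the trimmed mean of M values (trims of 30% on M and 5% on A, no weights), and log2 of the scaled TPM with a pseudocount of 1 was fitted with limma's eBayes with a trend, with 8 groups and 16 residual degrees of freedom. A gene was tested if its TPM exceeded 1 in 3 or more libraries, and p-values are two-sided. Intervals are at the 95% level. Interaction contrasts compared the effects of CDDO-Me between media. The depth per library is unknown from TPM, and no interval that needs counts is given.

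Genes named were the 10 members, up to 4 genes of each list with the smallest adjusted p over the CDDO-Me contrasts, called genes of a list where 5 or fewer were called in a direction, and the 3 genes most like each member. Alternatives were another scaling (RLE, median of ratios) or none, no filter or a mean of at least 5 TPM, a pseudocount of 0.1, no trend, array weights, a replicate block, the compared groups alone, each library left out in turn, and the 2 NRF2 KO CM libraries with few genes left out. Deviations from group means of the 3 same-numbered pairs all correlated over 0.1 in 4 of 9 comparisons (CDDO-Me in control media and in NRF2 KO CM, and WT CM against control media and KEAP1 KO CM), and the labels do not say what a number shares. The fit was tested on simulated data. The software was R 4.3.3, limma 3.58.1, Python 3.11.15 and matplotlib 3.10.9. Promoters were read from GRCm39 with GENCODE vM39.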

Additional observations from a re-analysis of the deposited data

Results flagged for a closer look

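The effect of CDDO-Me differed between media for 5 of the 10 genes, each by an interaction contrast in limma. Against control media, the effect in WT CM was larger for Txn1 by 1.71 (adjusted p = 7.3e-05) and for Prdx5 by 0.88 (adjusted p = 0.042), and for Txnrd1 the difference was -0.68 (adjusted p = 0.046). In KEAP1 KO CM the effect was larger than in control media for Txn1 by 1.32 (adjusted p = 0.0011), Prdx1 by 0.78 (adjusted p = 0.019), Prdx5 by 1.10 (adjusted p = 0.01) and Sod2 by 1.37 (adjusted p = 0.0032). Both sets of differences share the control media libraries. Among all genes tested, 15.3% were called in the first set and 14.8% in the second. With 1 library left out, the Txnrd1 call was lost in 15 of 24 fits. That of Prdx5 in WT CM was lost in 12 and that of Prdx1 in 4. Each of these was also lost without a filter on low values (adjusted p = 0.077, 0.077 and 0.14). The calls of Txn1, of Sod2 and of Prdx5 in KEAP1 KO CM were kept in every fit.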

How the results depend on the processing

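Of 130 log2 values (10 genes in 13 comparisons), the 43 called kept their sign under every alternative and every library left out, and 25 of the 87 not called changed it in at least 1 fit. Among those given in the text, the CDDO-Me change of Txnip was -0.00060 in WT CM without scaling and -0.065 to 0.33 in NRF2 KO CM with a library left out. The difference of the CDDO-Me effect between NRF2 KO CM and control media was -0.022 for Txn1 and 0.064 for Cat without the NRF2 KO CM libraries with few genes, 0.0013 for Cat with array weights, and -0.051 to 0.18 for Txn1 and -0.29 to 0.19 for Cat with a library left out. The counts of the 10 genes that changed with CDDO-Me stayed within 1.5 times in each medium, and leaving out each library in turn gave 6 to 7 in control media, 8 in WT CM, 9 in KEAP1 KO CM and 7 to 8 in NRF2 KO CM. For WT CM against control media with vehicle (2 genes), the count was 1 without a filter and without a trend, 6 with array weights, 5 with the compared groups alone and 6 without the NRF2 KO CM libraries with few genes, and 0 to 4 with a library left out. For KEAP1 KO CM against control media (3 genes), it was 1 without a filter, 6 with array weights, 6 with the compared groups alone and 6 without the NRF2 KO CM libraries with few genes, and 1 to 4 with a library left out. For WT CM against NRF2 KO CM (1 gene), it was 3 with array weights, 0 with the compared groups alone and 2 without the NRF2 KO CM libraries with few genes. KEAP1 KO CM against WT CM (0 genes) gave 2 with array weights, Txnip and Prdx1, where 975 of all genes tested were called against 0 in the main fit. The CDDO-Me effect in WT CM against control media (3 genes) gave 1 without a filter, 8 with array weights, 6 with the compared groups alone and 5 without the NRF2 KO CM libraries with few genes, and 1 to 4 with a library left out; in KEAP1 KO CM (4 genes) it was 3 to 5 under the alternatives and 3 to 4 with a library left out. The calls over all genes moved as well: for WT CM against control media 988 genes were called, 4114 with array weights, 2070 with the compared groups alone and 2552 without the NRF2 KO CM libraries with few genes, and for KEAP1 KO CM 1101, 5012, 2235 and 2850. For WT CM against NRF2 KO CM they were 1449, 3395, 168 and 2091, and for the CDDO-Me effect in WT CM against control media 2093, 5405, 3627 and 3836. The cause was not tested.

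Over all groups, deviations of the 84 same-numbered pairs correlated at 0.26 on average and at 0.023 in the lowest. The 168 pairs with different numbers correlated at -0.12 on average. For 22 of 24 libraries the mean correlation was highest with their own number. Same-numbered libraries thus shared part of their deviations, although not every pair was over 0.1, the rule used for pairing. The main fit did not use the number. With a replicate block the counts with CDDO-Me were 6 in control media, 8 in WT CM, 10 in KEAP1 KO CM and 8 in NRF2 KO CM, 3 and 5 for WT CM and KEAP1 KO CM against control media, and 2 for WT CM against NRF2 KO CM. The calls over all genes rose as well. With CDDO-Me they were 1464, 4600, 4820 and 1986 in the same order, against 822, 3809, 3932 and 1313 in the main fit. In the vehicle comparisons they were 1743, 1784 and 2550, against 988, 1101 and 1449. Besides Sod2, Srxn1 and Txnip (KEAP1 KO CM against control media) as given above, the block added Txnip with CDDO-Me in KEAP1 KO CM (adjusted p = 0.041), Prdx2 in KEAP1 KO CM against control media (0.04), Txnip in WT CM against NRF2 KO CM (0.0027) and Prdx2 in the CDDO-Me effect in WT CM against control media (0.03), and it changed no other call of the 10 genes. The unknown depth per library leaves the counting error of low values unknown.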
